A study of Mus musculus with 30 samples.

Results

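Stool bacteria of female mice lacking Gpr15l (Gpr15l-/-, KO) were compared between the end of a re-separation period and weaning. The comparison rests on 10 of the study's 30 libraries, chosen by genotype and time, with 5 KO libraries after re-separation (numbered 21 to 25) and 5 at weaning (1 to 5). In the study, KO and wild-type (WT) females were placed at weaning, at about 4 weeks of age, in cages of 2 to 7 mice that mixed the genotypes, stayed there for 4 to 5 weeks, and were then kept apart by genotype for 6 more weeks. The KO animals of the later group had thus shared cages with WT animals before they were parted. Values of KO stool after co-housing (libraries 11 to 15), WT stool after re-separation (26 to 30) and WT stool at weaning (6 to 10) are set beside the KO values where they bear on them. Cages and litters are not labelled, and no animal can be traced between the times, so p-values reflect only how these samples vary. Bacterial 16S reads carry no mouse gene, so the genotype of a library rests on its label.

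Each library counts reads of the V4 region of the bacterial 16S rRNA gene, a gene that every bacterium carries. Reads had been resolved by the authors into sequence variants that bear taxon names. Of the variants with reads, 468 occurred in re-separation libraries, 485 in weaning or co-housing libraries and 0 in both, so counts were added up per genus (or per lowest named rank above it), without mitochondria. Time and library set changed together in this comparison and cannot be told apart. Libraries held 53078 to 63628 reads after re-separation (median 61996) and 10560 to 34082 at weaning (median 21148). Genera with reads numbered 81 after re-separation and 59 at weaning, and 56 had reads at both times. No 2 libraries of a KO group repeated each other, with chi-square per degree of freedom between 67.6 and 296 over 20 pairs, where sampling noise alone gives about 1. Reads of mitochondria made up 0.0175% to 0.178% after re-separation and 0.0151% to 0.653% at weaning, and chloroplasts, reads with no kingdom name and 4 listed skin genera had 0 reads in both groups.

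The Gpr15l product is a small peptide that epithelia of the colon and skin release and that binds GPR15, a receptor on lymphocytes. The stool community of young mice is still being assembled at weaning, when solid food replaces milk and anaerobic Clostridia and Bacteroidales expand, and mice that share a cage exchange bacteria by eating each other's faeces. Mucus dwellers such as Akkermansia, Helicobacter and Mucispirillum live close to the epithelium that secretes the peptide. The design follows KO and WT stool communities from weaning through a time of shared cages and a time apart. Whether the communities differed by genotype at weaning was not tested here.

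After re-separation, KO stool held a set of low-abundance genera that had no reads at weaning. Rikenellaceae RC9 gut group and Odoribacter took larger shares. Helicobacter did too, with a call that held under 11 of 20 alternative settings. Akkermansia fell to near 0, and 9 of the 10 most abundant genera did not pass the test. Of 72 genera tested, 20 changed between re-separation and weaning in KO stool (27.8%; edgeR's quasi-likelihood test with Benjamini-Hochberg adjustment at 0.05), of which 17 rose (23.6%) and 3 fell (4.17%). At an unadjusted p under 0.05 there were 22. With every library thinned to the smallest one, 55 genera could be tested, among them 15 of the 20. Of these 55, 11 were called, 9 higher and 2 lower, and all 11 were among the 20. The median log2 fold change over all genera tested was 0.35, and 0.19 with genera absent from 1 group set to their bound. It was -0.10 when libraries were scaled by size alone. Percentages are shares of a library's reads, while log2 fold changes are fitted after edgeR's scaling of the libraries. The scaling factors in KO stool were 0.6185 to 1.264 after re-separation and 0.6052 to 1.773 at weaning. A log2 fold change can therefore differ in size or sign from the shares beside it. The number of bacteria, the 16S copies per cell and a shift of the other genera cannot be told apart in either.

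Of the 72 genera tested, 18 had 0 reads in KO stool at weaning and 3 had 0 reads in KO stool after re-separation, where libraries were deeper. Of the 17 genera that rose, 13 had 0 reads in all 5 KO libraries at weaning. Their summed share of bacterial reads was 0.343% to 1.09% after re-separation (median 0.424%). Other groups of the study held them too. In KO stool after co-housing 11 of them had reads in at least 1 library, with a summed share of 0.0622% to 1.12% (median 0.752%). In WT stool 12 had reads after re-separation (0.544% to 1.48%, median 0.874%) and 11 at weaning (0.109% to 0.815%, median 0.400%). Mean shares of the 13 after re-separation ran between 0.0108% and 0.0821%, close to the limit that depth sets at weaning. A share of 3 reads in a KO weaning library was 0.0157% on average, and 7 of the 13 would have had more than 3 reads in the smallest of these libraries at their later share. Folds are therefore lower bounds against 3 reads per library, and they would be too high if low counts had been removed before deposit, since only 5 counts of the 30 libraries were equal to 1.

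**Figure D1:**
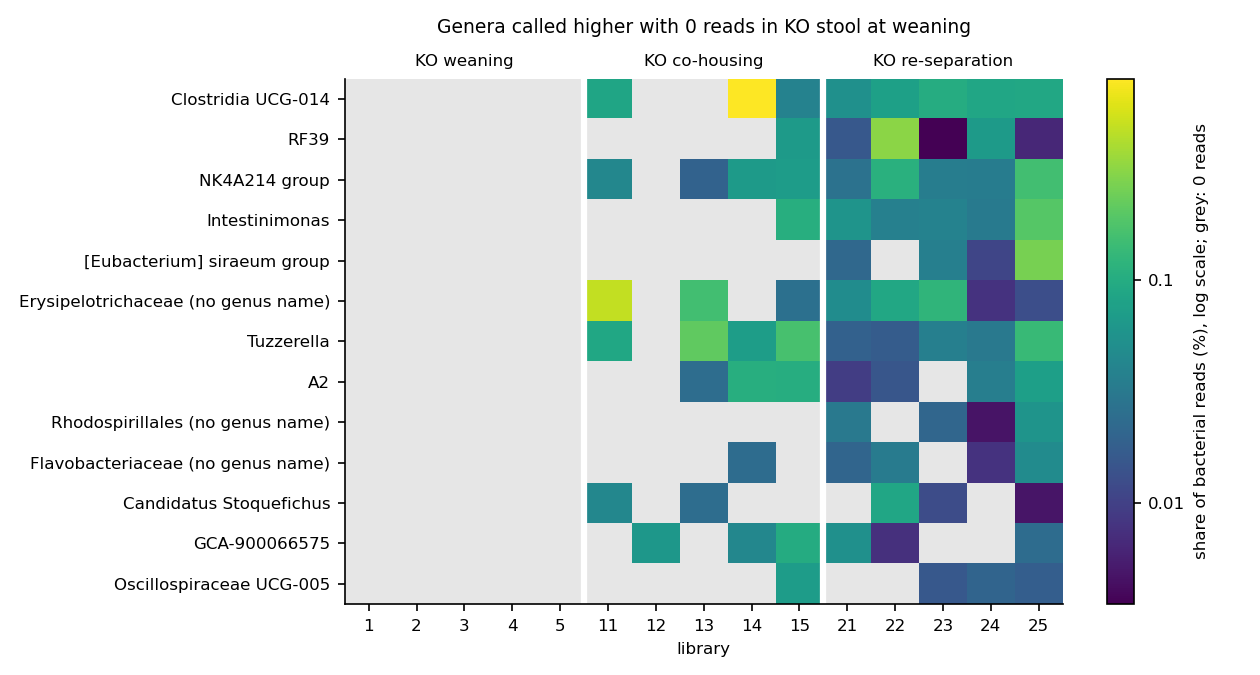
Share of bacterial reads (colour, percent on a log scale; grey marks 0 reads) of the 13 genera called higher with 0 reads in KO stool at weaning. Columns are the 15 KO libraries in order of time; 6 of the genera have reads in all 5 re-separation libraries, and co-housed libraries hold several of them.

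Clostridia UCG-014, an uncultured clade of Clostridia known from gut 16S surveys, took 0.0541%, 0.0773%, 0.101%, 0.0881% and 0.0905% of reads in re-separation libraries 21 to 25, against 0 reads in every weaning library. The 5 later values lay close together, and the clade was at least 5.24-fold higher than at weaning (edgeR adjusted p = 0.000563). In KO stool after co-housing its share spanned 0 to 0.802%. NK4A214 group, a genus of the Oscillospiraceae, stood at 0.0270%, 0.111%, 0.0353%, 0.0346% and 0.155% after re-separation against 0 reads at weaning, at least 4.64-fold higher (adjusted p = 0.000563). Tuzzerella, a mouse gut genus of the Lachnospiraceae, was at 0.0191%, 0.0170%, 0.0371%, 0.0315% and 0.136% after re-separation against 0 reads at weaning (at least 3.07-fold higher; edgeR adjusted p = 0.00170). Its value in library 25 stood apart, and the bound was 1.67-fold without it. Tuzzerella and NK4A214 group each had reads in 4 of 5 KO libraries after co-housing.

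RF39, an uncultured lineage of Bacilli, had 0.0159%, 0.309%, 0.00353%, 0.0676% and 0.00646% of reads after re-separation against 0 reads at weaning (at least 5.14-fold higher; edgeR adjusted p = 0.00170). Most of it lay in library 22, and the bound was 1.49-fold without that library. Intestinimonas, known for forming butyrate from lysine and sugars, was at 0.0588%, 0.0377%, 0.0389%, 0.0330% and 0.192% after re-separation against 0 reads at weaning (at least 4.61-fold; adjusted p = 0.00531; at least 2.69-fold without library 25). Variants of the Erysipelotrichaceae with no genus name summed to 0.0493%, 0.0905%, 0.122%, 0.00786% and 0.0129% after re-separation against 0 reads at weaning (at least 3.61-fold; edgeR adjusted p = 0.00367). These 6 genera had reads in every re-separation library, so their groups did not overlap. Some of their values lay under 3 reads of a weaning library (0.0157% on average), such as 0.00353% of RF39 and 0.00786% of Erysipelotrichaceae with no genus name. At weaning depth 0 reads cannot be told from such shares. In all, 9 of the 72 genera tested (12.5%) had KO groups that did not overlap: these 6, Rikenellaceae RC9 gut group and Odoribacter on the higher side, and Akkermansia on the lower side.

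The other 7 genera of this group were found in fewer libraries, and several rest on 1 of them. The [Eubacterium] siraeum group, named for a fibre-degrading member of the Ruminococcaceae, was at 0.0223%, 0%, 0.0371%, 0.0110% and 0.263% after re-separation against 0 reads at weaning (at least 4.26-fold; edgeR adjusted p = 0.00720), and at least 1.12-fold without library 25. It had 0 reads in KO stool after co-housing as well. A2, a genus of the Lachnospiraceae, averaged 0.0274% ± 0.0302 after re-separation (SD, n = 5; at least 1.75-fold over weaning), and its mean without library 25 was 0.0152%, under the floor at weaning. Rhodospirillales with no genus name averaged 0.0232% ± 0.0233 (at least 1.48-fold) and 0.0144% without library 25, also under that floor. Flavobacteriaceae with no genus name averaged 0.0222% ± 0.0196 after re-separation, with reads in 4 of 5 libraries (at least 1.42-fold). Without library 25 their mean was 0.0156%, just under the floor. GCA-900066575, another genus of the Lachnospiraceae, averaged 0.0172% ± 0.0229 (at least 1.10-fold), and without library 21 it was no longer called (adjusted p = 0.123). Its mean was 0.00794% without library 21 and 0.0154% without library 25, under the floor each time. Candidatus Stoquefichus, of the Erysipelatoclostridiaceae, averaged 0.0208% ± 0.0372 (at least 1.33-fold), and without library 22 its mean was 0.00430% and it was too rare to test. Oscillospiraceae UCG-005, named after its values were seen, averaged 0.0108% ± 0.0100, under the floor, so no fold is given.

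Calls of 4 of these 7 genera also turned on single weaning libraries, although they had 0 reads in each. A2 missed the threshold without library 2 or 3 (adjusted p = 0.0525 and 0.0522), and GCA-900066575 without library 2 or 3 (0.0550 and 0.0564). Candidatus Stoquefichus missed it without library 1, 2, 3 or 4 (edgeR adjusted p up to 0.0690). Oscillospiraceae UCG-005 was called under only 6 of the 19 alternative settings that tested it, with an adjusted p up to 0.341.

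Of the 4 genera that rose from reads already present at weaning, 2 belong to the Bacteroidales, anaerobes that break down complex polysaccharides. Rikenellaceae RC9 gut group, an uncultured relative of Alistipes, took 0.645%, 2.50%, 0.938%, 0.818% and 1.87% of reads after re-separation, against 0%, 0.0822%, 0.0411%, 0.0513% and 0% at weaning. Every later value lay above every earlier one, with a mean of 1.35% ± 0.797 after re-separation and 0.0349% ± 0.0353 at weaning (SD, n = 5 each). The log2 fold change was 5.26 ± 1.07 (SE; edgeR adjusted p = 0.000344). Co-housed KO libraries were at 0% to 0.396% and overlapped the weaning libraries. The change from weaning to co-housing was not called (log2 fold change 1.89, edgeR adjusted p = 0.1135). Without library 2 the weaning mean was 0.0231%, and the call held (log2 fold change 5.75).

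Odoribacter, the main genus of the Marinifilaceae and a producer of short-chain fatty acids, was chosen for description after its values were seen. It took 1.70%, 2.94%, 0.751%, 2.21% and 3.15% of reads after re-separation, against 0.142%, 0.261%, 0.447%, 0.0815% and 0.248% at weaning. The groups did not overlap, and the log2 fold change was 3.75 ± 0.84 (SE; edgeR adjusted p = 0.000564). In KO stool after co-housing 4 of 5 libraries were at 0.122% to 0.610% and library 14 was at 3.70%. Its reads came from 4 variants after re-separation, each present in all 5 libraries, and from 1 variant at weaning, present in all 5. These numbers of variants come from libraries of different depth and from sets that share no variant.

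Clostridia vadinBB60 group, an uncultured clade of Clostridia also named after its values were seen, stood at 0.720%, 1.81%, 0.420%, 0.661% and 3.56% after re-separation, against 0.904%, 0.0822%, 0.118%, 0.0393% and 0.505% at weaning. The groups overlapped, and the log2 fold change was 2.55 ± 0.88 (SE; edgeR adjusted p = 0.0247). The call was lost without library 25 (log2 fold change 1.58, adjusted p = 0.261) and without library 2, 3 or 4 (adjusted p up to 0.0690), while without library 1 the log2 fold change was 3.44. The clade was called under 12 of the 20 alternative settings, and not with libraries scaled by size alone or thinned. Its reads were spread over 27 variants after re-separation and 3 at weaning, at the different depths given above.

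Helicobacter, spiral bacteria that swim in the mucus of the mouse caecum and colon, was the 1 abundant genus that rose. It took 6.91%, 10.1%, 10.4%, 22.1% and 11.4% of reads after re-separation, against 7.73%, 7.50%, 2.51%, 1.68% and 8.43% at weaning. Only library 21 of the later group fell within the weaning range. The log2 fold change was 1.67 ± 0.59 (SE; edgeR adjusted p = 0.0264). In KO stool after co-housing it averaged 10.4% ± 1.32 (SD, n = 5). The call was lost without library 24 (log2 fold change 1.17, adjusted p = 0.213), and without library 3, 4 or 25 (adjusted p between 0.0535 and 0.0790). It was also lost with scaling by library size alone or by DESeq2 size factors, and with no filter on low counts. Fitting only the groups compared and thinning to the smallest library lost it as well, and it held under 11 of the 20 alternative settings.

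**Figure D2:**
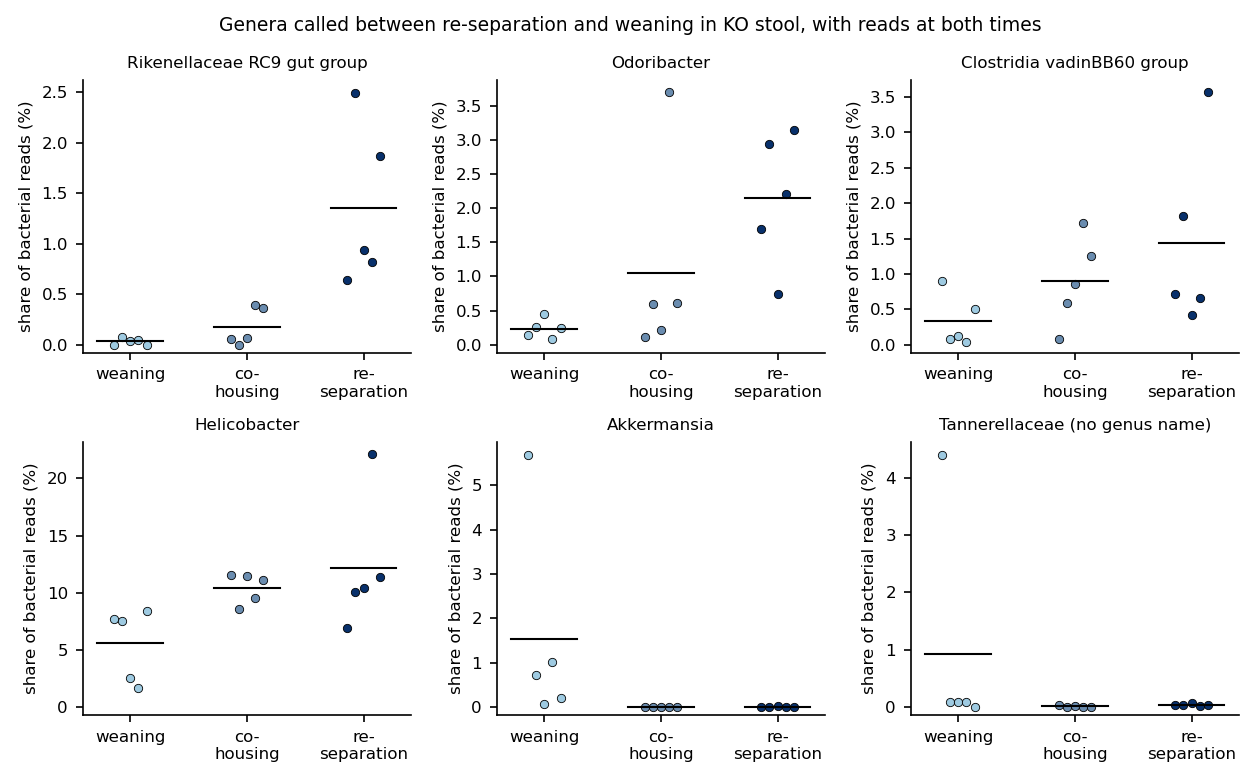
Share of bacterial reads (percent, linear axes) in each KO library, ordered as weaning, co-housing and re-separation, for the 6 called genera with reads at both ends; points are libraries and lines are group means. Rikenellaceae RC9 gut group and Odoribacter lie wholly above weaning after re-separation, Akkermansia lies wholly below, and library 1 holds nearly all Tannerellaceae reads without a genus name.

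Akkermansia, which feeds on intestinal mucin, fell. It took 0.00954%, 0%, 0.0194%, 0.0126% and 0.00808% of reads after re-separation, against 5.68%, 0.731%, 0.0705%, 1.01% and 0.210% at weaning. Every weaning library lay above every later one, and 1 of the later libraries had no read of it. The log2 fold change was -6.84 ± 1.41 (SE; edgeR adjusted p = 0.000344). Library 1 stood apart, and without it the weaning mean was 0.506% in place of 1.54% and the log2 fold change was -5.73 (adjusted p = 0.00588). All 5 co-housed KO libraries had 0 reads. Akkermansia had 1 variant with reads in each group.

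Tannerellaceae with no genus name, relatives of Parabacteroides, were called lower on the strength of library 1. Their share was 0.0318%, 0.0415%, 0.0760%, 0.0173% and 0.0356% after re-separation, against 4.40%, 0.0851%, 0.0940%, 0.0936% and 0% at weaning. The log2 fold change was -4.03 ± 1.49 (SE; edgeR adjusted p = 0.0341), and -0.69 (adjusted p = 0.967) without library 1. Without re-separation library 21, 22, 23 or 24 the adjusted p was 0.0508 to 0.0822.

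Pseudomonas, a genus common in water and on the list of genera often found in reagents, had 0 reads after re-separation against 0.109%, 0.0851%, 0.129%, 0.0634% and 0% at weaning (at least 15.3-fold lower; edgeR adjusted p = 0.000563). It had 0 reads in all WT libraries after re-separation as well, and a mean share of 0.139% in KO stool after co-housing and 0.0238% in WT stool at weaning. The 9 listed reagent genera, of which 3 had reads, summed to 0% after re-separation, to 0.0824% to 0.419% after co-housing and to at most 0.147% at weaning in KO stool. Their reads were thus confined, among these 3 groups, to 1 of the library sets, and their part in the result was not tested.

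The community was carried by 10 genera that made up 72.5% to 91.5% of the reads of each KO library, and of these only Helicobacter was called. Muribaculaceae whose genus bears the family's name, the leading polysaccharide degraders of the mouse colon, took 43.6%, 35.7%, 23.8%, 20.7% and 19.9% after re-separation, against 11.1%, 27.9%, 14.0%, 39.1% and 8.67% at weaning. The groups overlapped, and the fitted change was 0.64 ± 0.58 on the log2 scale (SE; edgeR adjusted p = 0.564). Without library 4 the value was 1.53 (adjusted p = 0.0428). Their reads were spread over 58 variants after re-separation, 39 of them present in all 5 libraries, and over 42 at weaning, 5 of them present in all 5. Depth differed between the times and the 2 library sets share no variant, so these counts are not compared.

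Prevotellaceae UCG-001, fibre-degrading Bacteroidales, averaged 16.7% ± 2.81 after re-separation and 21.9% ± 8.08 at weaning (SD, n = 5 each; log2 fold change -0.05 ± 0.53). Mycoplasma, which lacks a cell wall, averaged 9.84% ± 7.53 after re-separation and 9.54% ± 9.48 at weaning (log2 fold change 0.59 ± 0.65), with library 5 alone at 24.9% (weaning mean 5.69% without it). The range of this genus over animals exceeded any shift between the times.

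Bacteroides, generalist polysaccharide and mucin degraders, was at 2.84%, 4.58%, 2.63%, 4.36% and 3.18% after re-separation, against 16.5%, 9.11%, 9.05%, 5.95% and 2.02% at weaning. Library 5 was the only weaning library below the later range's upper end. Its log2 fold change was -0.86 ± 0.70 (SE; edgeR adjusted p = 0.498). Parasutterella, which grows without using sugars, averaged 2.23% ± 1.60 after re-separation and 4.04% ± 3.16 at weaning (log2 fold change -0.73 ± 0.80), and 2.86% at weaning without library 4, when the log2 value was 0.32. Muribaculum averaged 1.07% ± 0.245 after re-separation and 2.76% ± 3.02 at weaning, or 1.50% at weaning without library 1.

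Lachnospiraceae NK4A136 group, Clostridia that ferment fibre, had 2.22%, 1.81%, 7.93%, 2.09% and 6.96% after re-separation, against 0%, 1.04%, 3.60%, 0.474% and 4.74% at weaning. The log2 fold change of 1.67 ± 0.73 (SE) missed the threshold (edgeR adjusted p = 0.0891) and passed it without library 5 (2.20, adjusted p = 0.0281). After co-housing this genus averaged 15.0% ± 3.95 in KO stool, and each of the 5 values lay above every library of the other KO groups. Lachnospiraceae with no genus name averaged 1.70% ± 1.41 after re-separation, or 1.10% without library 25, and 3.09% ± 2.74 at weaning. Alistipes averaged 2.94% ± 0.687 after re-separation and 3.08% ± 2.29 at weaning, and its log2 fold change of 0.47 turned to -0.07 when libraries were scaled by size alone.

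**Figure D3:**
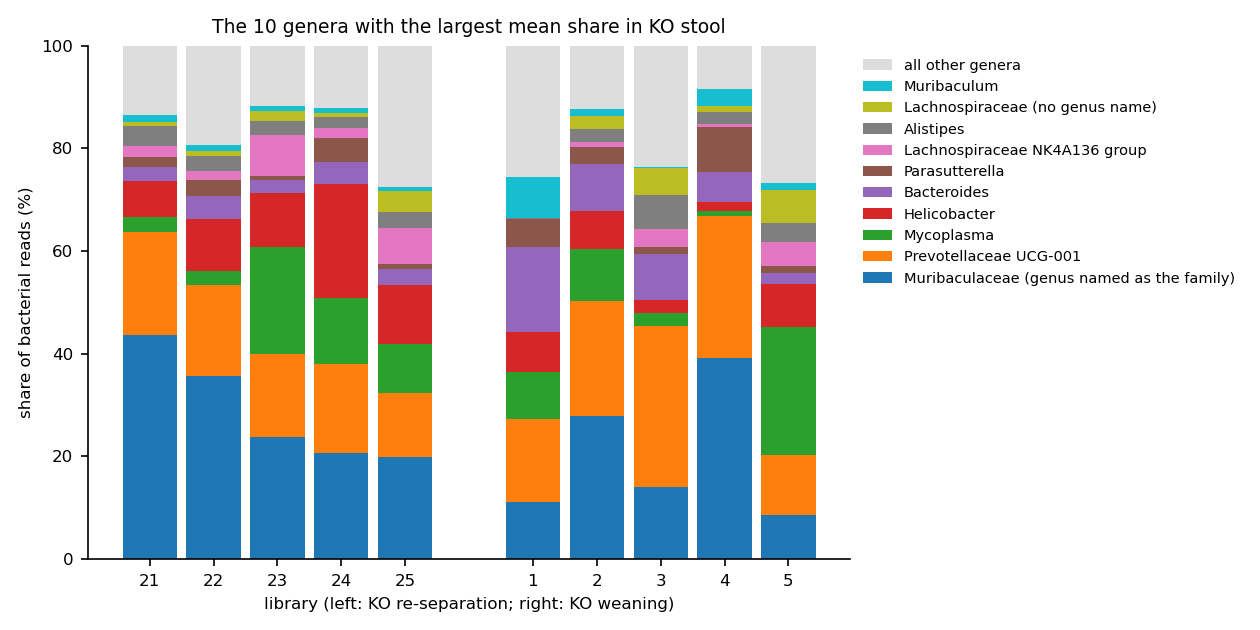
Stacked shares of bacterial reads (percent) of the 10 genera with the largest mean share over the 10 KO libraries, re-separation libraries at left and weaning libraries at right; grey is all other genera. The 10 genera hold 72.5% to 91.5% of each library, and the mean distance between libraries is 0.270 after re-separation and 0.433 at weaning.

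Summed by family, 35 were tested and 8 changed (22.9%; 6 higher and 2 lower; edgeR, Benjamini-Hochberg), with 11 at an unadjusted p under 0.05. Of the 14 families with a mean share of at least 1% in KO stool, Marinifilaceae alone was called, at 2.15% ± 0.975 after re-separation and 0.236% ± 0.139 at weaning (log2 fold change 3.49 ± 0.75; adjusted p = 0.000765). Helicobacteraceae had a log2 fold change of 1.24 ± 0.54 and missed the threshold (adjusted p = 0.0945). Rikenellaceae as a whole averaged 5.10% ± 1.43 after re-separation and 3.79% ± 2.52 at weaning (log2 fold change 0.87 ± 0.52; adjusted p = 0.245), and Alistipes made up most of the family at weaning. The other named families were Muribaculaceae, Prevotellaceae, Mycoplasmataceae, Lachnospiraceae, Bacteroidaceae, Sutterellaceae, Gastranaerophilales, Oscillospiraceae, Tannerellaceae, Deferribacteraceae and Desulfovibrionaceae. Their log2 fold changes lay between -1.55 (Tannerellaceae) and 0.48 (Muribaculaceae), with adjusted p of at least 0.245.

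Taxon lists were described by counts and summed shares, and the summed share overlapped between the KO groups for each of the 10 lists. Of 4 genera tested that live in mucus or on the epithelium, Helicobacter rose and Akkermansia fell, beside 23.6% of all genera tested that rose and 4.17% that fell, and the median log2 fold change was -0.23. Mucispirillum, a mucus dweller of the Deferribacteraceae, averaged 1.20% ± 0.917 after re-separation and 1.49% ± 2.80 at weaning (log2 fold change 0.32). Library 5 held 6.50%, and without it the weaning mean was 0.243% and the genus was called higher (log2 fold change 2.65, adjusted p = 0.0185). Candidatus Arthromitus, the segmented filamentous bacteria that attach to the ileal lining, averaged 0.0180% ± 0.0206 after re-separation, with reads in 3 of 5 libraries, and 0.0348% ± 0.0221 at weaning, with reads in 4 of 5. Its log2 fold change was -0.79 and was not called. The list's summed share was 7.26% to 23.6% after re-separation (median 11.7%) and 2.87% to 15.2% at weaning (median 8.48%).

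Among the Clostridia several rare genera rose, while the summed shares of the orders overlapped. Of the Lachnospirales tested, 3 of 16 rose and 0 fell (median log2 fold change 0.29), with a summed share of 3.24% to 14.2% after re-separation and 2.19% to 14.0% at weaning. Of the Oscillospirales, 4 of 15 rose and 0 fell (median 0.08), at 0.817% to 3.65% after re-separation and 0.189% to 6.56% at weaning. The list set up for butyrate-forming Clostridia also took in every name that starts with [Eubacterium]. Its 2 higher genera of 8 tested were Intestinimonas and the [Eubacterium] siraeum group, the latter listed by name only. It had 0 lower genera and a median of 0.03. These counts stand beside 23.6% of all genera tested that rose, and nothing in them is particular to the lists. After co-housing the Lachnospirales held 14.9% to 31.7% of KO reads and the Oscillospirales 3.53% to 10.5%.

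Bacteroidales had 2 of 11 genera higher (Rikenellaceae RC9 gut group and Odoribacter) and 1 lower (Tannerellaceae with no genus name, a call that rests on library 1), with a median log2 fold change of 0.23. Over all genera tested 23.6% rose and 4.17% fell, and the counts of this and the next lists are given beside these shares as descriptions. The order held 46.6% to 78.8% of reads after re-separation (median 50.3%) and 30.6% to 81.7% at weaning (median 65.1%), against 16.9% to 45.6% after co-housing. Of the Erysipelotrichales, 2 of 3 tested rose, both from 0 reads at weaning (against 23.6% of all genera), and the order summed to 0.0582% to 0.245% after re-separation and 0% to 0.0876% at weaning. Both uncultured Clostridia, UCG-014 and vadinBB60, rose. Of 8 genera of the Proteobacteria and Desulfobacterota, 1 rose (Rhodospirillales with no genus name) and 1 fell (Pseudomonas), and their summed share was 1.81% to 5.30% after re-separation and 3.64% to 9.28% at weaning. Neither wall-less genus was called, nor was Lactobacillus, the 1 tested genus of the lactic acid bacteria.

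WT stool changed library set at the same time. A shift of the library set that multiplies shares alike in both genotypes cancels in the difference between their changes. For genera with 0 reads in a group it need not cancel, since depth differed between the sets, and whether it did was not tested. All 72 genera were tested for the difference between the KO change and the WT change. This difference was called for 13 of 72 genera (18.1%; edgeR interaction test with Benjamini-Hochberg adjustment), 10 with the higher change in KO and 3 with the lower, and 21 had an unadjusted p under 0.05. Within WT stool 9 of 72 genera changed (12.5%), 7 higher and 2 lower, with 20 at an unadjusted p under 0.05. Scaled by library size alone, the difference was called for 6 genera with the higher change in KO and 4 with the lower.

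Rikenellaceae RC9 gut group rose in KO stool to a share near that of WT stool, in which its own change was not called (log2 fold change -0.48, edgeR adjusted p = 0.713). Its mean share was 1.35% in KO stool after re-separation and 0.0349% in KO stool at weaning, against 1.19% in WT stool after re-separation and 1.00% in WT stool at weaning. The KO change exceeded the WT change by 5.73 ± 1.35 on the log2 scale (SE; adjusted p = 0.00369), and this held under each of 30 alternative settings. Odoribacter had mean shares of 2.15% in KO stool after re-separation and 0.236% in KO stool at weaning, against 2.77% in WT stool after re-separation and 1.25% in WT stool at weaning. Its changes differed by 3.20 ± 1.09 (edgeR adjusted p = 0.0366), and it was called under 19 of the 30 settings.

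Of the genera with 0 reads in KO stool at weaning, 6 were called in the difference. Clostridia UCG-014 was at 0.250% in WT stool after re-separation and 0.150% in WT stool at weaning (means; adjusted p of the difference 0.00957). RF39 was at 0.0589% in WT stool after re-separation and 0.112% at weaning (adjusted p = 0.00457), and Erysipelotrichaceae with no genus name at 0.0105% and 0.0505% (adjusted p = 0.00369). NK4A214 group was at 0.0859% in WT stool after re-separation and 0.0374% at weaning (adjusted p = 0.0164), and Tuzzerella at 0.0733% and 0.0188% (adjusted p = 0.0488). Candidatus Stoquefichus had reads in 0 WT libraries after re-separation and 1 at weaning (adjusted p = 0.0173), and without that library the call was lost. The genera other than Candidatus Stoquefichus thus had reads in WT stool at both times. Clostridia UCG-014 and Erysipelotrichaceae with no genus name were called under all 30 settings, and Tuzzerella under 6. Intestinimonas and A2 had 0 reads in WT stool at weaning as well, so for them the difference rests on groups without reads.

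**Figure D4:**
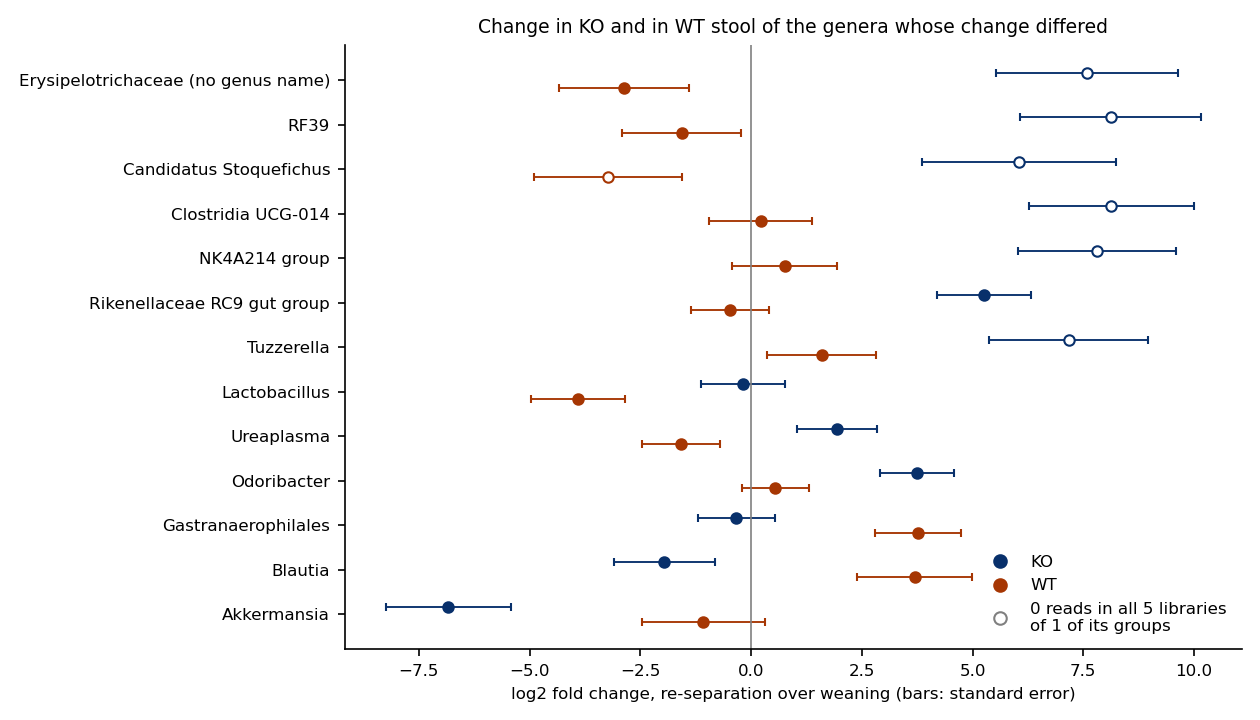
Log2 fold change of re-separation over weaning in KO (blue) and WT (brown) stool for the 13 genera whose change differed between the genotypes; bars are standard errors, and open points mark fits in which all 5 libraries of a group had 0 reads, whose size depends on how 0 reads are handled. Rikenellaceae RC9 gut group and Odoribacter moved further in KO stool, Blautia and Gastranaerophilales further up in WT stool.

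Akkermansia was at 0.00992% in KO stool after re-separation and 1.54% in KO stool at weaning, against 0.00136% in WT stool after re-separation and 0.00212% in WT stool at weaning, where 1 WT library had reads at each time. The changes differed by -5.76 ± 2.00 (SE; edgeR adjusted p = 0.0401), but the call held under only 19 of 30 settings and not without library 1. Blautia, acetate-forming Lachnospiraceae, averaged 0.0729% in KO stool after re-separation and 0.347% in KO stool at weaning, against 0.109% in WT stool after re-separation and 0.00596% in WT stool at weaning (difference -5.65 ± 1.72; adjusted p = 0.0173). Library 1 held 1.26%, and without it the KO weaning mean was 0.118% and the difference was not called (adjusted p = 0.0618). Gastranaerophilales, gut relatives of the Cyanobacteria that do not photosynthesise, averaged 1.30% in KO stool after re-separation and 2.40% in KO stool at weaning, against 3.15% in WT stool after re-separation and 0.162% in WT stool at weaning (difference -4.10 ± 1.28; edgeR adjusted p = 0.0193). The call was lost without library 1 or library 30 (adjusted p up to 0.0744).

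Lactobacillus and Ureaplasma, both named after their values were seen, were lower in WT stool after re-separation than at weaning, and in KO stool neither was called. Lactobacillus averaged 0.166% in KO stool after re-separation and 0.239% in KO stool at weaning, against 0.0856% in WT stool after re-separation and 0.702% in WT stool at weaning (difference 3.72 ± 1.38; edgeR adjusted p = 0.0488; called under 7 of 30 settings). Without library 24 its KO mean after re-separation was 0.104%. Ureaplasma averaged 1.05% in KO stool after re-separation and 0.349% in KO stool at weaning, against 0.620% in WT stool after re-separation and 1.36% in WT stool at weaning (difference 3.52 ± 1.26; adjusted p = 0.0443; called under 13 of 30 settings). Without library 25 its KO mean after re-separation was 0.688%. The change within WT stool passed the threshold for Lactobacillus (adjusted p = 0.0111) and not for Ureaplasma (adjusted p = 0.187).

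KO libraries lay closer together after re-separation than at weaning, by a test that does not hold once adjusted over the genotypes. The mean Bray-Curtis distance between libraries, which runs from 0 for identical proportions of genera to 1 for no genus in common, was 0.270 within the re-separation group and 0.433 within the weaning group (difference -0.163, exact permutation test over 252 assignments, p = 0.0476, adjusted over the genotypes 0.0952). In WT stool it was 0.250 after re-separation and 0.221 at weaning (difference 0.0286, exact permutation p = 0.714), and the difference between the genotypes was not tested. Leaving out any library but 2 or 21 put p above 0.05 (0.0794 to 0.238). The mean distance between the 2 groups was 0.387, less than that within weaning. The split between the 2 groups, in which time and library set go together, accounted for 0.181 of the squared distances as R2. Its exact permutation p was 0.151 (adjusted over the genotypes 0.151, smallest p allowed 0.00794). In WT stool R2 was 0.437 (exact permutation p = 0.0159, adjusted 0.0317), and the difference between the genotypes in R2 was not tested. On plain proportions the KO value passed 0.05 without library 4 or 5, at 0.234 and 0.272 (exact permutation p = 0.0318 and 0.0238). On square roots of proportions, which give rare genera more weight, the KO value with all libraries was 0.252 (exact permutation p = 0.00794).

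KO libraries after re-separation lay at a mean distance of 0.278 from WT libraries of the same time, within 1 library set. Across the library sets, they lay 0.330 from WT libraries at weaning and 0.449 from KO libraries after co-housing. At weaning, within 1 library set, KO and WT libraries lay 0.362 apart. These distances were not tested against each other. KO libraries after co-housing lay 0.505 from KO libraries at weaning, although both belong to the same library set. In that contrast, which shares the weaning libraries with the main one, 23 of 72 genera were called (31.9%), 14 higher and 9 lower.

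Genus richness rose. At 10491 reads, the smallest library, KO libraries held 56.2, 59.4, 60.0, 56.8 and 62.0 expected genera after re-separation, against 33.1, 47.4, 50.8, 46.1 and 42.0 at weaning. The groups did not overlap, with means of 58.9 ± 2.39 after re-separation and 43.9 ± 6.83 at weaning (SD, n = 5 each; difference 15.0, exact permutation p = 0.00794, the smallest possible, adjusted 0.0159). Co-housed KO libraries averaged 51.9 ± 5.49. WT stool rose by 15.4 genera over the same interval, and the change in KO differed from it by -0.447 genera (permutation of genotype labels within each time, exact over 63504 assignments, p = 0.917). Among families in place of genera the KO difference was 5.39. Depth differed between the times, and thinning removes it only from the counts as deposited.

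The Shannon index, which weighs evenness, did not follow. It was 2.42 ± 0.274 after re-separation and 2.43 ± 0.307 at weaning in KO stool (SD, n = 5 each; difference -0.0133, exact permutation p = 0.944). In WT stool it was 2.63 ± 0.158 after re-separation and 2.09 ± 0.203 at weaning (difference 0.542, exact permutation p = 0.00794). The change in KO stool was 0.555 lower than in WT stool, tested by permuting genotype labels within each time (exact p = 0.0205, adjusted over both measures 0.0410). WT stool at weaning had the lowest mean index of the 6 groups, and KO stool at weaning stood at 1.95 to 2.75.

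**Figure D5:**
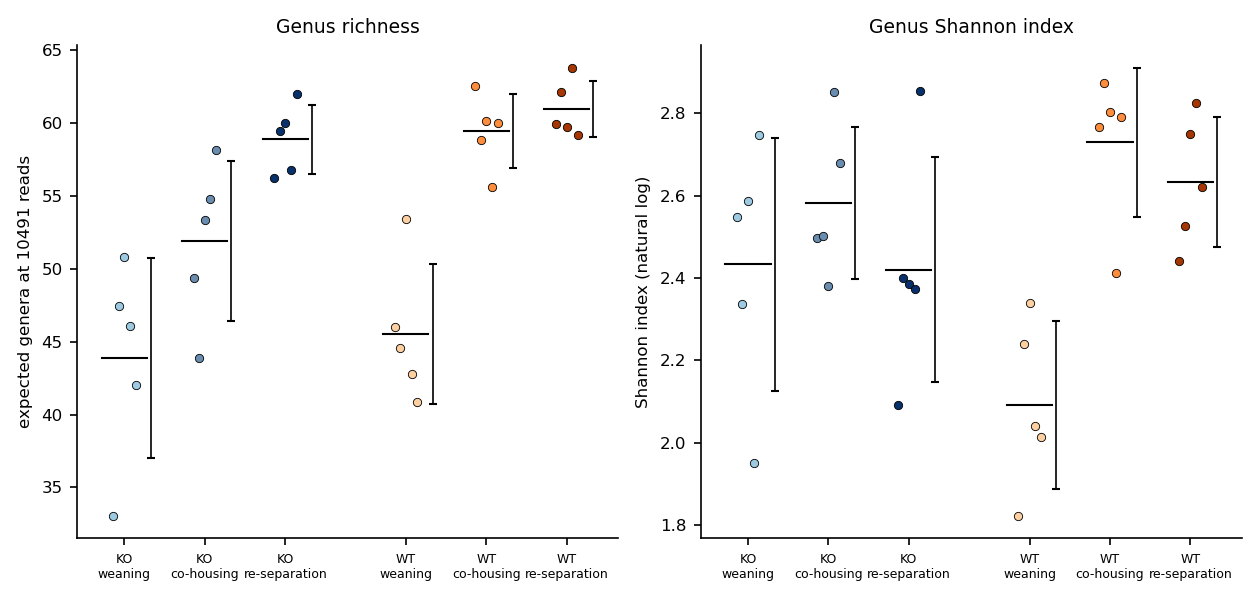
Expected number of genera at 10491 reads (left) and Shannon index of genera in natural-log units (right) for each library, by genotype and time; points are libraries, lines are means and bars are SD (n = 5). Richness after re-separation lies above weaning in both genotypes, while the Shannon index does so in WT stool and not in KO stool.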

How the data were processed

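Stool DNA was extracted with a silica column kit, and PCR products of the 16S rRNA V4 region were sequenced from both ends on an Illumina machine, per the labels' protocols. The deposited table gives raw counts, whole numbers of reads for each variant in each library, under a taxon name. R 4.5.1 and limma appear in the submitters' processing notes with no stated use. The deposited table is labelled as DADA2 output. Settings, filters and the taxonomic reference were not given in the sources used here. Of 3697 variants listed, 2744 had no reads. The table holds no variant sequences, and genus names are the authors'.

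Counts were summed by genus or family after leaving out 4 mitochondrial variants, and the smallest library then held 10491 reads. Genera with at least 10 reads in at least 3 of the 30 libraries were tested with edgeR 4.0.16 (R 4.3.3; quasi-likelihood test, TMMwsp factors, 1 coefficient per group over all 30 libraries, Benjamini-Hochberg threshold 0.05). Alternatives were DESeq2 1.42.0, limma 3.58.1 (voom), other scalings and filters, only the groups compared, thinning (vegan 2.7.1, seed 1) and leaving out libraries. The edgeR step was tested on simulated data. Libraries were numbered by the labels' IDs, which are unique, so none pair across groups. Bray-Curtis distances, richness and Shannon indices were computed in Python 3.11.15 (pandas 2.3.3, numpy 2.4.6, scipy 1.17.1) and compared with exact two-sided permutation tests; R2 is one-sided by nature. The test of genotype differences in richness and Shannon index, and the adjustment of within-group distances over the genotypes, were added after seeing the data. Groups, taxa and lists were chosen with earlier results of these data known. The named genera are those called between the KO times (up to 12 each way by size), the 10 with the largest mean share, up to 10 with a called genotype difference, those of the mucus list, and those with reads in 5 of 5 libraries of 1 KO group and 0 in the other. Reads from PCR are not independent molecules, so floors cover counting error only.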

Additional observations from a re-analysis of the deposited data

Results flagged for a closer look

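Single libraries stood apart from the other 4 of their KO group in 12 of 94 groups of values examined for outliers (Dixon's criterion at 95%). For independent, normally spread values chance alone meets it in about 1 in 20 groups. Many of these shares lie near 0, groups with only 0 reads cannot be flagged, and some groups share values. The count of 12 is therefore not compared with chance. At weaning, library 1 held 5.68% Akkermansia and 4.40% Tannerellaceae with no genus name, library 5 held 6.50% Mucispirillum, and library 4 held 0.0876% Erysipelotrichales. After re-separation, library 22 held 0.309% RF39 and 0.0867% Candidatus Stoquefichus. Library 25 held 0.192% Intestinimonas, 0.263% [Eubacterium] siraeum group, 0.136% Tuzzerella and 2.50% Ureaplasma. Library 24 held 0.415% Lactobacillus, which is also the value of the lactic acid bacteria in that library.

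The change between re-separation and weaning differed between the genotypes for 13 genera by edgeR's interaction test, given as the KO change minus the WT change on the log2 scale. Where groups had reads, the values were 5.73 for Rikenellaceae RC9 gut group, 3.72 for Lactobacillus, 3.52 for Ureaplasma, 3.20 for Odoribacter, -4.10 for Gastranaerophilales, -5.65 for Blautia and -5.76 for Akkermansia. For genera with 0 reads in KO stool at weaning the fitted values, which depend on how 0 reads are handled and are no bounds, were 10.5 for Erysipelotrichaceae with no genus name, 9.69 for RF39, 9.29 for Candidatus Stoquefichus, 7.92 for Clostridia UCG-014, 7.05 for NK4A214 group and 5.58 for Tuzzerella. The Shannon index changed by -0.555 more in KO than in WT stool (exact permutation p = 0.0205).

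Mitochondrial reads, which enter no comparison, reached 0.653% of the reads of library 5 at weaning, where the KO median was 0.0704%. WT stool at weaning held at most 0.0649%. Co-housed libraries reached 0.661% in KO stool and 0.829% in WT stool. The part of these reads in the results was not tested.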

How the results depend on the processing

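Of the 20 genera called in KO stool, 10 were called under each of the 20 alternatives in which they were tested, and 0 turned direction. Thinned to the smallest library, with 55 genera left to test, 11 were called in KO stool, 7 in the genotype difference and 14 between KO co-housing and weaning. Leaving out single libraries gave 14 to 23 KO genera (23 without library 5), 6 to 15 for the genotype difference (6 without library 1), 1 to 8 within WT stool and 14 to 27 between KO co-housing and weaning. Without libraries 1, 5, 11 and 19, which earlier results had set apart, 15 KO genera and 16 WT genera were called. Scaling by library size alone gave 14 WT genera, and fitting only the groups compared gave 18 WT genera and 11 between KO co-housing and weaning. DESeq2 called 14 KO genera, limma-voom 18. R2 between the 2 KO groups was 0.252 on square roots with all libraries, and 0.157 to 0.272 on plain proportions without single libraries. The difference in within-group distance was -0.223 to -0.119 without single libraries. The Shannon difference was 0.000313 for families and -0.134 to 0.0691 without single libraries. Directions of uncalled genera turned as follows, on the log2 scale. Prevotellaceae UCG-001 was 0.105 with TMM, 0.0809 with limma-voom and -0.276 to 0.452 without single libraries. Parasutterella was -1.28 to 0.324, Gastranaerophilales -0.859 to 0.0619 and Lactobacillus -0.978 to 0.339 without single libraries. Alistipes was -0.0664 and Mucispirillum -0.307 by library size alone, and Lachnospiraceae with no genus name was 1.35 with limma-voom. Their cause was not tested, beyond the smaller number of genera that thinning leaves to test. No paired analysis was possible because the labels give each library its own ID and tie no mouse to 2 times. Depth limits what can be said of genera with 0 reads at weaning, where 3 reads were 0.00880% to 0.0286% of a library.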
